A study of Erythranthe guttata with 80 samples.

Results

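Leaves of coastal perennial and inland annual yellow monkeyflower, Mimulus guttatus, were compared at the stage at which plants carried 4 true leaves, called 4leaf. Inland plants often flowered at the next node after this stage, whereas coastal plants passed through further leaf stages before budding. Ecotype and developmental phase at 4leaf therefore cannot be told apart. The comparison used 20 of the 80 libraries of the series, 10 coastal and 10 inland plants, taken by the ecotype and tissue labels of the count table. The coastal perennial plants all came from accession SWB-4 and the inland annual plants all from accession LMC-17, so ecotype and accession cannot be told apart. Both were self-fertilised, laboratory-inbred families, grown from seed in a growth chamber under long days with no treatment named. Whole leaf pairs were taken as they neared full expansion, and each plant gave tissue for a single library. The 20 plants were spread over 4 library pools at random. A second pair of groups, the 10 coastal and 10 inland plants sampled with 2 true leaves (2leaf), was used to see where the 4leaf difference had changed.

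Coastal plants live for several years, stay low and spread, and grow under salt spray, whereas inland plants flower fast and die in the summer drought. Gibberellins are growth hormones whose last active step is made by GA3-oxidases, and whose signal removes DELLA repressors through the receptor GID1. Jasmonates are defence hormones. They are made from membrane lipids by lipoxygenase (LOX), allene oxide synthase (AOS) and oxophytodienoate reductase (OPR), act through the receptor COI1, and free MYC transcription factors from JAZ repressors, which are themselves transcribed in response to jasmonate.

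RNA was measured by 3′-Tag-Seq, which counts reads from the 3′ end of transcripts. Totals ran from 2676271 to 5698367 counts in the coastal libraries and from 2209701 to 5673383 in the inland libraries. Levels are CPM, the counts of a gene scaled to an equal library total with TMM factors, and differences are log2 fold changes (LFC) of coastal over inland plants from edgeR's quasi-likelihood test with library pool as a term. A gene was called at a Benjamini-Hochberg adjusted p under 0.05. The study chose its chloroplast and bud hub genes on these same libraries, so they are no independent check of the tissue label. The summed level of 7 chloroplast hub genes had a median of 4848 CPM in coastal and 4963 CPM in inland 4leaf plants, against 629 and 388 CPM in coastal and inland buds. Summed over 5 bud hub genes, the medians were 6.37 CPM in coastal and 10.8 CPM in inland 4leaf plants, against 649 and 2231 CPM in coastal and inland buds.

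Inland plant 4 lay apart from the other 9 inland plants. On the first principal component of the 20 libraries, which held 59.6% of the variance, it scored 39.6, against 63.1 for the next lowest inland plant. In it 2634 genes lay more than 2-fold from the rest of its group, against at most 1200 in any other inland plant. For 31.9% of the called genes it was the inland plant nearest to the coastal plants, against at most 10.4% for any other. Leaving it out therefore tends to widen the differences of those genes. It came from library pool 3, and the main counts, and calls of named genes at 4leaf that changed without it, are given both ways.

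**Figure D1:**
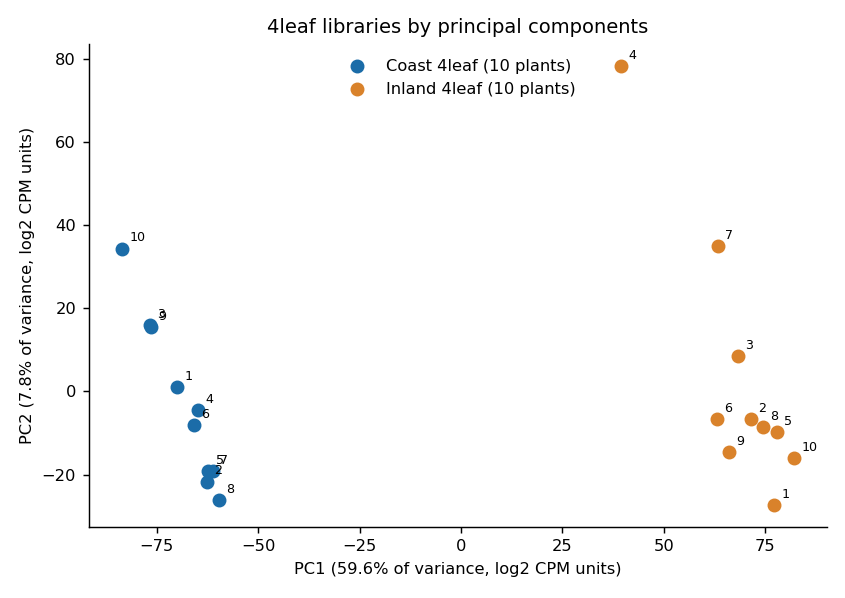
Principal components of log2 CPM in the 20 4leaf libraries, PC1 across and PC2 up, with 1 numbered point per plant (blue, Coast; orange, Inland). The 10 coastal plants sit left of 0 and the 10 inland plants right of it on PC1. Inland plant 4 stands alone at 39.6 on PC1, and PC2 holds 7.83% of the variance.

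The ecotypes differed across most of the leaf transcriptome. Of 15236 genes tested, 9544 were called, or 62.6%, with 4761 higher in coastal plants (31.2%) and 4783 higher in inland plants (31.4%). Most differences were small, with a median absolute LFC of 0.54 over all genes tested and 0.87 over the called genes. At an absolute LFC above 2, 576 genes were higher in the coastal group and 873 in the inland group, together 9.51% of the genes tested, and above 4 there were 170 and 282. Without inland plant 4 these became 642 and 856 above 2, and 179 and 276 above 4. The 10 coastal and 10 inland values did not overlap at all for 2315 genes, or 15.2%, made up of 7.61% with coastal plants higher and 7.58% with inland plants higher. Without inland plant 4, described above, the share was 18.8%. For 2937 genes the 95% confidence interval of the LFC lay within 0.5 of 0, and 2701 of these were not called.

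Without inland plant 4, 9739 of 15195 genes were called (64.1%), 4922 of them higher in the coastal group and 4817 in the inland group. Among the 8151 called genes that could be tested in each of the 4 pools, 7668 (94.1%) had the same sign in all 4. By the letter of the gene identifier, which stands for a linkage group, the share called ran from 60.5% to 64.3%, except for 68.2% of 547 genes under G and 70.2% of 305 genes under O, a letter with no linkage group.

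Many of the hormone genes described here were named by the study for their differences in these same plants, so the counts and medians of these lists are not independent evidence of a direction. Both listed gibberellin synthesis genes were higher in coastal plants. GA3ox1 (Migut.I00834), which makes the bioactive hormone, had 17.9, 45.5 and 74.2 CPM as its lowest, median and highest coastal values, against 0, 1.16 and 5.51 CPM in inland plants. The groups did not overlap, and the LFC was 5.02 (SE 0.28, adjusted p = 2.54e-12). GA20ox1 (Migut.F00399), the enzyme of the preceding steps, had 22.1, 50.6 and 239 CPM in coastal plants and 8.57, 15.3 and 24.8 CPM in inland plants, with an LFC of 1.89 (SE 0.24, adjusted p = 6.21e-07). Its groups overlapped slightly, and coastal plant 8 held the highest value.

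Genes of gibberellin removal and perception went the other way. GA2ox8 (Migut.H01552), of a family that inactivates gibberellin, had 0.495, 2.21 and 4.75 CPM in coastal plants and 2.14, 11.1 and 34.8 CPM in inland plants, and the groups overlapped through 2 inland plants, plant 4 among them. Its LFC was −2.57 (SE 0.43, adjusted p = 2.69e-05). GID1B (Migut.N02128), a gibberellin receptor, had 4.49, 6.85 and 9.52 CPM in coastal plants, all below the 20.5, 28.9 and 38.8 CPM of inland plants, an LFC of −2.06 (SE 0.13, adjusted p = 2.89e-11).

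Further down the gibberellin pathway the differences were smaller. DELLA (Migut.H02266), the growth repressor, had 6.39, 13.5 and 21.5 CPM in coastal plants and 3.33, 6.69 and 15.7 CPM in inland plants, where the highest value was that of plant 4 and the next highest 10.8 CPM. Its LFC was 0.91 (SE 0.23, adjusted p = 1.51e-03) with plant 4 and 1.09 (adjusted p = 1.48e-04) without it. PIF1 (Migut.M00105), a bHLH factor that DELLA proteins restrain, was higher in every coastal plant, at 59.7 to 106 CPM against 14.7 to 43.7 CPM, an LFC of 1.44. The other PIF1 gene, Migut.D00504, had an LFC of 0.41 and an adjusted p of 0.0437, and its call ended under 13 alternatives, where the adjusted p reached 0.114 (0.0806 without inland plant 4). Of the 7 listed gibberellin genes tested, 5 were therefore higher in the coastal group and 2 in the inland group (4 and 2 without plant 4). Of all genes tested, 31.2% and 31.4% were.

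**Figure D2:**
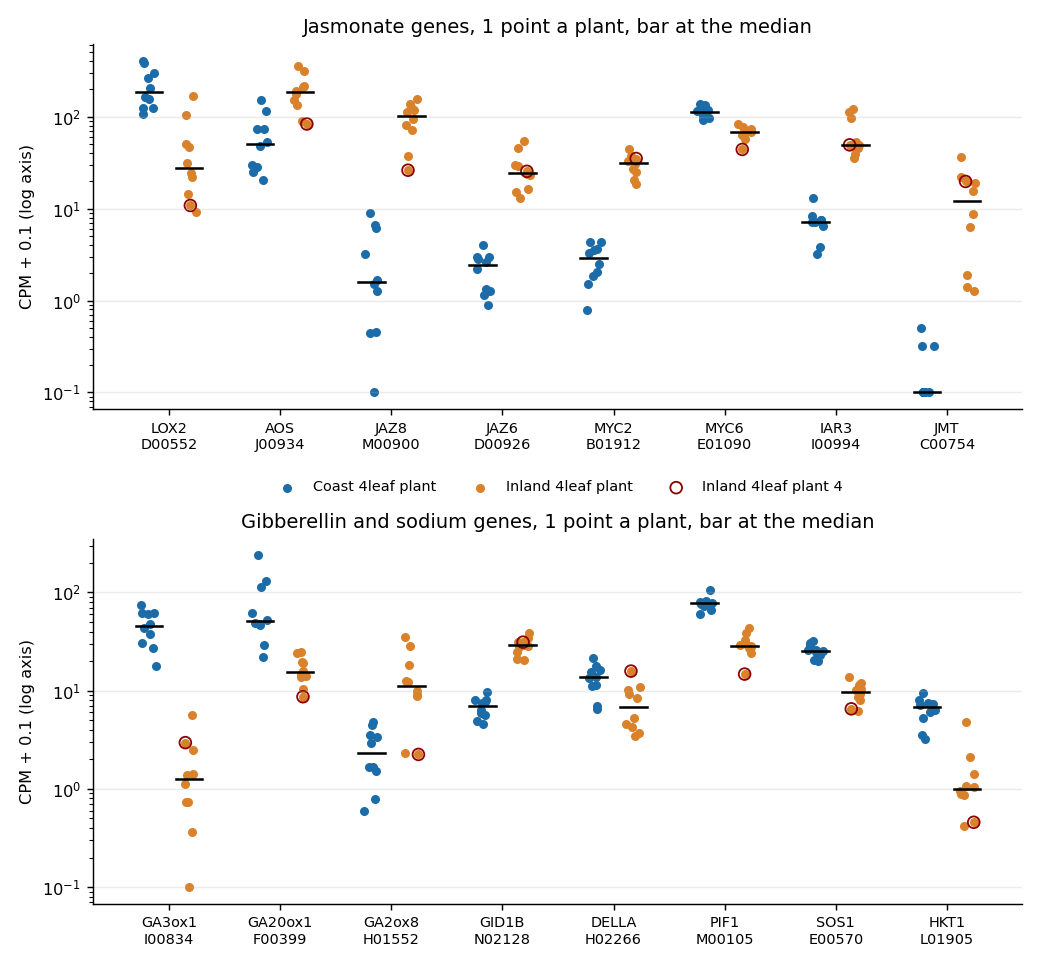
CPM plus 0.1, on a log axis, of 16 hormone and sodium genes in each 4leaf plant (blue, Coast; orange, Inland; bar, median; ring, Inland plant 4). GA3ox1 has coastal values of 17.9 to 74.2 CPM against at most 5.51 CPM in inland plants. For JAZ8, JAZ6, MYC2 (Migut.B01912), IAR3 and JMT every inland plant lies above every coastal plant.

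The listed jasmonate signalling genes were mostly higher in inland plants. Of 10 tested, 6 were higher in inland plants, 1 in coastal plants and 3 were not called, with a median LFC of −1.23, against −0.01 over all genes tested, of which 31.4% were higher in inland plants. JAZ8 (Migut.M00900), a repressor, had 0, 1.5 and 8.82 CPM in coastal plants and 26.1, 103 and 157 CPM in inland plants. No plants overlapped, and the LFC was −5.16 (SE 0.42, adjusted p = 1.20e-09). JAZ6 (Migut.D00926), another repressor, had 0.794, 2.32 and 3.91 CPM in coastal plants and 13.0, 24.5 and 53.8 CPM in inland plants, an LFC of −3.73 (SE 0.24). Another JAZ gene, JAZ3 (Migut.D02043), was not called, with an LFC of −0.04 and a 95% interval from −0.37 to 0.29.

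The MYC factors did not go 1 way. MYC2 (Migut.B01912) had 0.690, 2.78 and 4.23 CPM in coastal plants and 18.5, 31.1 and 43.97 CPM in inland plants, an LFC of −3.41 (SE 0.22, adjusted p = 3.37e-11). A second MYC2 gene, Migut.E00934, had an LFC of −1.31, whereas MYC6 (Migut.E01090) was higher in every coastal plant, at 92.8 to 138 CPM against 43.9 to 83.4 CPM, an LFC of 0.77. NINJA (Migut.K00515), which ties JAZ proteins to their corepressor, had an LFC of −1.16 with no overlap between groups. The COI1 receptor genes were not called at 4leaf. Migut.F00706 had an LFC of 0.05 (95% interval −0.21 to 0.31) and Migut.F01428 an LFC of 0.26 (−0.07 to 0.59), and Migut.F01428 was called with voom and limma over 60 libraries (0.33, adjusted p = 0.0259).

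JMT (Migut.C00754), a jasmonate methyltransferase, was nearly silent in coastal plants. It had no count in 7 of them and 3 counts in all, against 1.18, 11.9 and 36.3 CPM and 379 counts in inland plants. The fitted LFC of −6.32 (SE 0.65, adjusted p = 3.73e-08) depends on the prior count at such low levels.

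Jasmonate synthesis was split within gene families. LOX2 (Migut.D00552), the lipoxygenase, had 108, 184 and 408 CPM in coastal plants and 9.17, 27.8 and 170 CPM in inland plants, an LFC of 2.17 (SE 0.46, adjusted p = 3.63e-04), with 1 inland plant inside the coastal range. Of the AOS genes, Migut.J00934 had 20.4, 50.5 and 151 CPM in coastal plants and 83.2, 185 and 360 CPM in inland plants, an LFC of −1.88. The other, Migut.B00287, was far lower in abundance and went the other way, at 3.71 to 6.61 CPM in coastal plants against 0.402 to 2.67 CPM in inland plants, an LFC of 1.59. The study also lists Migut.J00934 as OPR3.

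OPR1 was represented by genes with neighbouring numbers. Migut.B00744 had 6.95, 11.4 and 19.1 CPM in coastal plants and 18.0, 40.4 and 63 CPM in inland plants, an LFC of −1.84. Migut.B00747 had 6.90, 11.5 and 30.5 CPM in coastal plants and 0.783, 1.92 and 4.42 CPM in inland plants, an LFC of 2.53. If these genes are near-identical copies, which was not tested, they can exchange reads, and each of these values is uncertain. Summed over Migut.B00744, Migut.B00746 and Migut.B00747, coastal plants had 25.4 ± 9.63 CPM against 46.8 ± 14.2 CPM for inland plants (SD, n = 10 each). The ratio was 0.543, and the sum was chosen after the values were seen.

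Of 5 listed genes that remove or recycle jasmonate, 4 were lower in coastal plants, against 31.4% of all genes tested. IAR3 (Migut.I00994), an amidohydrolase that cleaves hormone conjugates, had 3.11, 7.10 and 12.8 CPM in coastal plants and 35.1, 48.98 and 120 CPM in inland plants, an LFC of −3.24 (SE 0.22, adjusted p = 5.44e-11). The ILL6 amidohydrolases had LFCs of −2.15 (Migut.C01122) and −1.72 (Migut.N03278), and LAF3 (Migut.N01845) one of −0.72. ST2A (Migut.B01186), a sulfotransferase that acts on hydroxylated jasmonate, was the exception, at 2.11, 4.28 and 9.50 CPM in coastal plants and 1.21, 2.18 and 4.96 CPM in inland plants. Its LFC was 0.77 (SE 0.25, adjusted p = 0.0111), its groups overlapped, and its call ended with voom and limma on 60 libraries without the pool term (adjusted p = 0.0698).

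Of the 8 listed auxin genes tested, 7 were higher in inland plants, against 31.4% of all genes tested. Their median LFC was −3.50, in a list for which the study picked genes with large differences in these plants. SHY2 (Migut.N02182), an Aux/IAA repressor of auxin signalling, had 1.04, 4.98 and 22.2 CPM in coastal plants and 21.4, 41.8 and 50.4 CPM in inland plants, an LFC of −2.75 (SE 0.31). The groups met at coastal plant 8 and inland plant 4. AMI1 (Migut.F01717), an amidase that can release auxin, had 8.33, 12.0 and 16.7 CPM in coastal plants against 30.7, 49.8 and 57.2 CPM, an LFC of −1.94. The amidohydrolase ILL3 (Migut.F00137) had no count in 6 coastal plants and at most 1.10 CPM there, against 3.00 to 12.9 CPM in inland plants.

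Of 3 auxin-responsive genes with neighbouring numbers, 2 went with the rest and the last did not. Migut.F01336 had 0, 0.284 and 1.25 CPM in coastal plants and 11.4, 30.0 and 44.6 CPM in inland plants, an LFC of −6.33 (SE 0.34). Migut.F01339 had an LFC of −3.59 (SE 0.25). Migut.F01341 had 14.1, 22.3 and 40.5 CPM in coastal plants and 0, 0.416 and 1.58 CPM in inland plants, an LFC of 5.44 (SE 0.27). The same untested limit on near-identical copies applies. Summed over the 3, coastal plants had 32.5 ± 9.998 CPM against 90.01 ± 33.1 CPM for inland plants (SD, n = 10 each), a ratio of 0.361, also chosen after the values were seen.

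Single genes of other hormones differed too. ARR12 (Migut.K00347), a cytokinin response regulator, had 0.847, 2.21 and 4.67 CPM in coastal plants and 13.3, 17.9 and 28.6 CPM in inland plants, an LFC of −2.97 (SE 0.23). BKI1 (Migut.N02706), an inhibitor of the brassinosteroid receptor, had an LFC of −1.99, and the ethylene response factor ERF1 (Migut.O00367) one of −1.43 (adjusted p = 5.26e-03), whose call ended with voom and limma at an adjusted p of 0.0516. The clock gene APRR7 (Migut.L01650) was higher in every coastal plant, at 9.12 to 25.97 CPM against 2.35 to 8.96 CPM, an LFC of 1.29.

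Sodium transporters were higher in coastal plants. SOS1 (Migut.E00570), which exports sodium across the plasma membrane, had 20.0, 25.5 and 31.7 CPM in coastal plants and 6.11, 9.59 and 13.7 CPM in inland plants. Every coastal plant lay above every inland plant, and the LFC was 1.41 (SE 0.14, adjusted p = 1.79e-08). HKT1 (Migut.L01905), a sodium transporter, had 3.11, 6.65 and 9.32 CPM in coastal plants and 0.322, 0.905 and 4.73 CPM in inland plants, an LFC of 2.36 (SE 0.36), with inland plant 2 inside the coastal range. The sensor kinase gene CIPK8 (Migut.N02833) was not called at 4leaf, with an LFC of 0.10 and a 95% interval from −0.12 to 0.31. At 2leaf all 3 of these sodium genes were called higher in coastal plants, where 4068 of 14236 genes tested were. The study named these genes for their differences in plants of this series, so this count is not independent evidence.

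**Figure D3:**
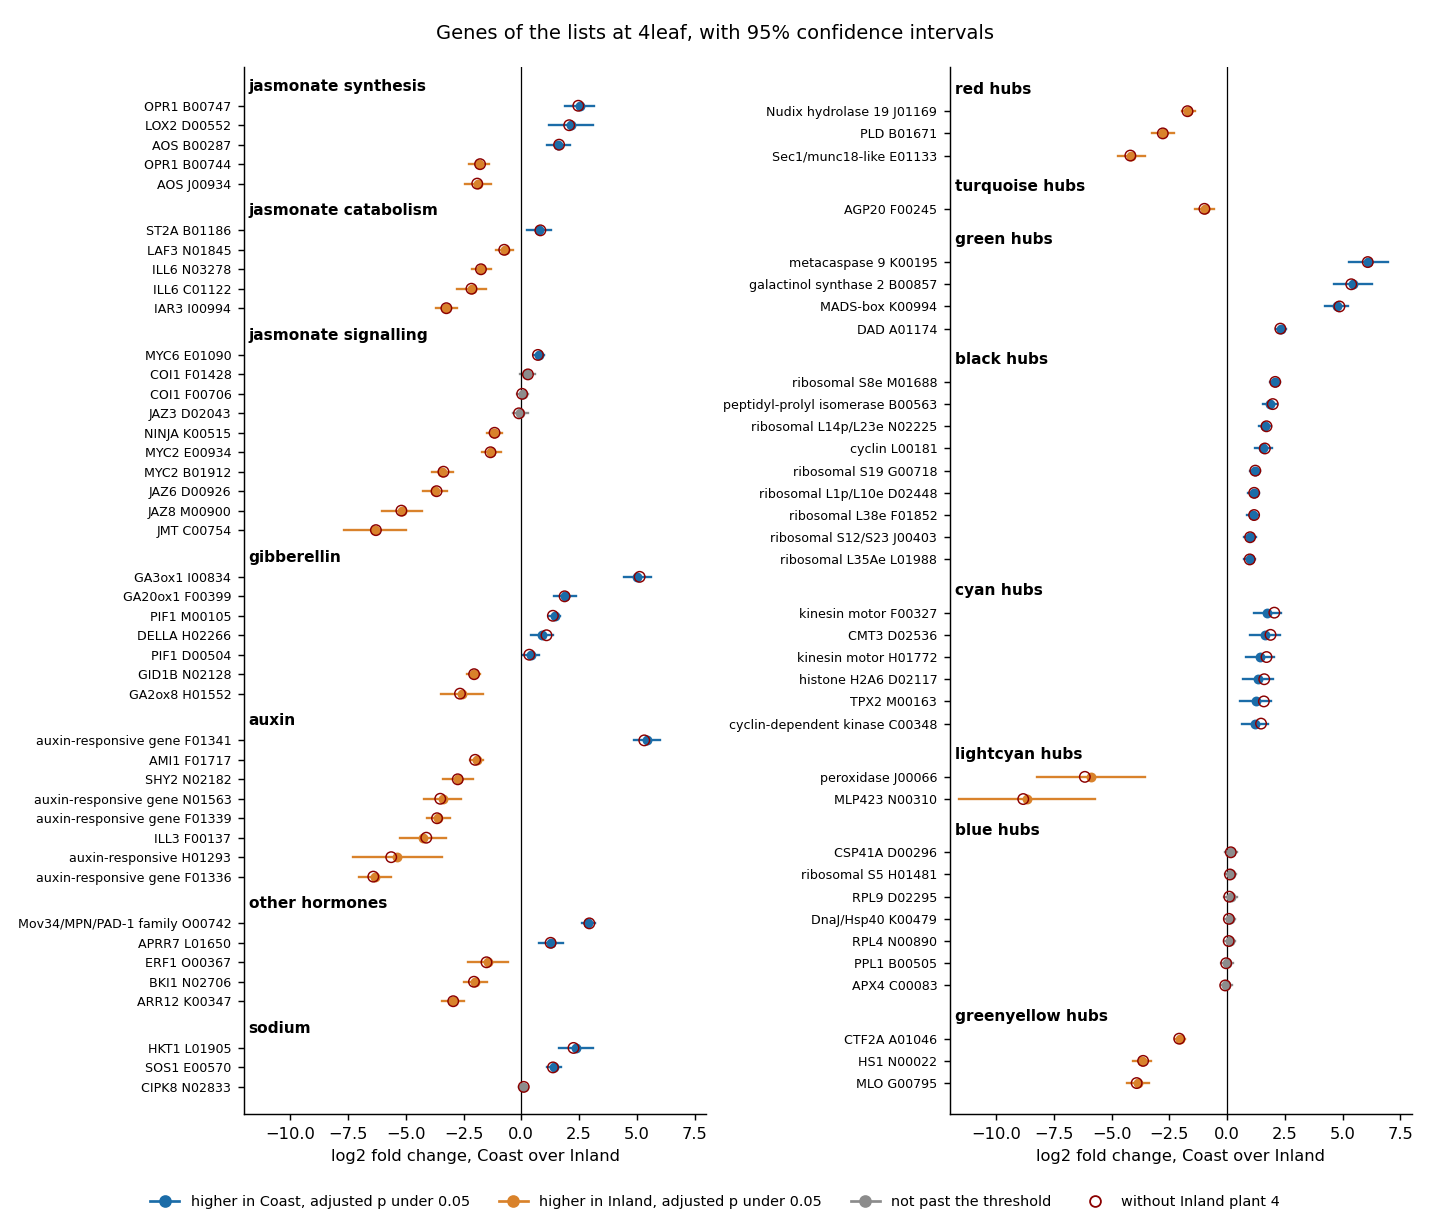
LFC of coastal over inland 4leaf plants for the 78 list genes tested, grouped by list, with 95% confidence intervals as bars (blue, higher in Coast; orange, higher in Inland; grey, not called; open ring, LFC without Inland plant 4). Of the 78 genes, 34 were higher in coastal plants, 33 were higher in inland plants and 11 were not called, 7 of these being the chloroplast hubs. The rings of the 6 cell division genes (cyan hubs) lie right of their points.

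Hub genes, the genes most central to each co-expression module of the study, gave a view outside hormones. Since the study picked them from these same plants, how many moved is not independent evidence of a direction. All 4 green hubs were higher in coastal plants with no overlap. Over all genes tested, 31.2% were higher in coastal plants, and 7.61% had every coastal plant above every inland plant. The summed level of the green hubs was 76.5 CPM (median, range 70.2 to 92.6) in coastal plants against 7.16 CPM (5.22 to 9.33) in inland plants. Metacaspase 9 (Migut.K00195), a protease of programmed cell death, had 2.42, 4.17 and 7.54 CPM in coastal plants and a single count in the 10 inland plants. DAD (Migut.A01174), named for defence against cell death, had 23.4, 27.1 and 33.1 CPM in coastal plants and 3.92, 5.08 and 6.46 CPM in inland plants, an LFC of 2.32 (SE 0.10). Galactinol synthase 2 (Migut.B00857), which makes a precursor of protective sugars, had 6.22 to 11.5 CPM in coastal plants and no count in 8 of the inland plants.

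The black hubs were 7 ribosomal protein genes, a peptidyl-prolyl isomerase and a cyclin. Each of the 9 was higher in coastal plants, against 31.2% of all genes tested. Their summed level was 3197 CPM (median; range 2389 to 4344) in coastal plants and 1311 CPM (1155 to 1738) in inland plants. The largest difference among them was that of ribosomal S8e (Migut.M01688), at 110, 144 and 180.8 CPM in coastal plants and 22.5, 34.6 and 45.7 CPM in inland plants, an LFC of 2.07 (SE 0.11). Inland plant 4 was the highest inland plant for 6 of the 9, and among the 9 the groups overlapped only for ribosomal L38e (Migut.F01852), through that plant. Of all genes tested, 7.61% had every coastal plant above every inland plant.

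Cell division genes, the cyan hubs, were higher in coastal plants for all 6 members, against 31.2% of all genes tested, with a median LFC of 1.38. Their summed level had a median of 337 CPM in coastal plants (169 to 561) and 87.9 CPM in inland plants (43.04 to 487). The highest inland value was plant 4, and the next was 242 CPM. TPX2 (Migut.M00163), a spindle assembly factor, had 7.94, 15.4 and 30.7 CPM in coastal plants and 1.21, 5.12 and 28.2 CPM in inland plants, an LFC of 1.24 (SE 0.33) that became 1.59 without plant 4. Histone H2A6 (Migut.D02117) had an LFC of 1.33, and the cyclin-dependent kinase gene (Migut.C00348) one of 1.202, which became 1.603 and 1.47. Plant 4 was the highest inland plant for all 6, so their LFCs had to rise without it, and the median became 1.65. In bulk tissue, more dividing cells and more of these transcripts in each cell cannot be told apart.

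None of the 7 blue hubs, genes of the chloroplast, was called by edgeR's test, against 62.6% of all genes tested. None had an unadjusted p under 0.05 or was called by voom and limma or DESeq2. Ribosomal S5 (Migut.H01481), of the chloroplast ribosome, had 956, 1183 and 1342 CPM in coastal plants and 730, 1078 and 1608 CPM in inland plants, an LFC of 0.16 with a 95% interval from −0.09 to 0.40. Over the 7, the intervals reached from −0.29 for APX4 (Migut.C00083) to 0.44 for CSP41A (Migut.D00296). The spread was wider among inland plants, where the summed level ran from 3031 CPM in plant 4 to 6281 CPM, against 4370 to 5670 CPM in coastal plants. The 3 inland plants of library pool 3 were the lowest, at 3031 to 3561 CPM, against at least 3723 CPM in other pools. Coastal plants of pool 3 had 4406 to 5064 CPM, and pool as a source of the inland spread was not tested. With library size alone in place of TMM, 3 of the 7 were called higher in coastal plants, at LFCs of 0.18 to 0.25.

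**Figure D4:**
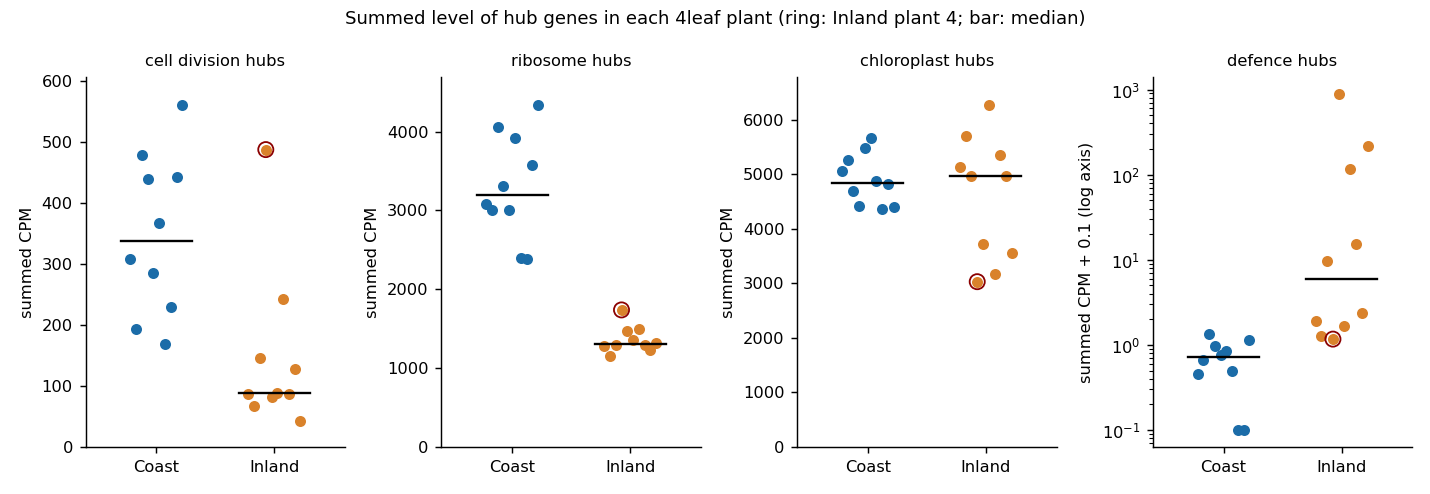
Summed CPM of hub genes in each 4leaf plant, Coast left and Inland right in each panel, with a bar at the median and a ring on Inland plant 4; the defence panel has a log axis and 0.1 added. Medians of the cell division hubs are 337 CPM for Coast and 87.9 CPM for Inland, those of the ribosome (black) hubs 3197 and 1311 CPM, and those of the chloroplast hubs 4848 and 4963 CPM. Defence hubs reach 889 CPM in 1 inland plant.

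Red and greenyellow hubs were higher in inland plants, in 3 of 3 tested genes each, and none of their groups overlapped. Among all genes tested, 31.4% were higher in inland plants, and 7.58% had every inland plant above every coastal plant. These hubs too were picked by the study from these same plants. HS1 (Migut.N00022), a heat stable protein, was among the more abundant genes here, at 26.2, 71.9 and 107 CPM in coastal plants and 594, 762 and 984 CPM in inland plants, an LFC of −3.67 (SE 0.19, adjusted p = 5.39e-13). MLO (Migut.G00795), of a family of membrane proteins known from mildew susceptibility, had 2.33, 4.71 and 11.5 CPM in coastal plants and 32.9, 71.97 and 95.8 CPM in inland plants, an LFC of −3.86. The Sec1/munc18-like gene (Migut.E01133), of vesicle trafficking, had at most 1.14 CPM in coastal plants against 7.86 to 16.9 CPM in inland plants, an LFC of −4.15.

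Defence hubs of the lightcyan module were near 0 in all coastal plants and uneven among inland plants. Their summed level was at most 1.24 CPM in coastal plants, whereas inland plants 5, 10 and 7 had 889, 216 and 117 CPM and the other 7 had 1.07 to 15.3 CPM. MLP423 (Migut.N00310), an MLP-like defence protein, had 476 CPM in inland plant 5, with a median of 2.27 CPM over the inland plants and at most 0.5002 CPM in coastal plants. The peroxidase gene (Migut.J00066) had 336 CPM in the same plant and an inland median of 2.30 CPM. The fitted LFCs of −8.66 and −5.90 rest on these few plants, and neither was called with voom and limma (adjusted p of 0.114 and 0.0702).

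Genes present in 1 accession and all but absent in the other were the extreme of the comparison. Such genes needed at least 100 counts over the 10 plants of 1 accession and at most 3 over the 10 of the other. Of the 28140 genes counted, tested or not, 66 met these limits in coastal and 128 in inland plants. Of these, 53 and 90 also had at most 3 counts in the low accession at 2leaf. Among the list genes, metacaspase 9 (161 counts in coastal against 1 in inland plants), JMT (3 against 379), a second MLP423 gene (Migut.N00312, 0 against 170) and a serine protease inhibitor gene (Migut.A00978, 0 against 283) met these limits. A gene absent in 1 accession, silent in it, or too different from the reference genome for its reads to align cannot be told apart in such counts.

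Most of the largest LFCs in each direction were of genes known by identifier alone, some of them within these limits. MLP423 (Migut.N00310) was an exception, and its LFC of −8.66 rests on the few inland plants described above. Migut.E00178 had the largest in favour of coastal plants, at 30.0, 52.5 and 67.9 CPM in coastal plants and 1 count in all inland plants, a ratio of 1637 with a 95% counting interval from 293 to 64680. Migut.M00568 had 373, 570 and 768 CPM in coastal plants and 0, 1.70 and 4.18 CPM in inland plants, a ratio of 266, but with 66 counts in inland plants it was above the limit of 3. Among inland genes, Migut.K01124 had 19.0, 29.6 and 40.3 CPM in inland plants and no count in coastal plants. It was at least 357-fold lower in coastal plants, set against a floor of 3 counts over the group. Migut.N02328 had 0, 0.446 and 1.32 CPM in coastal plants and 186, 382 and 559 CPM in inland plants, an LFC of −9.31 (SE 0.29). With 22 counts in coastal plants it too was above the limit, as was Migut.D02509, with 16 counts in coastal plants against 10161 in inland plants.

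Some of the most abundant leaf transcripts differed too. Migut.I00198 had 6265, 11590 and 37020 CPM in coastal plants and 1763, 3005 and 3866 CPM in inland plants, an LFC of 2.19 (SE 0.19), and no plants overlapped. Migut.G01100 had 1007, 1491 and 2807 CPM in coastal plants and 7.90, 10.9 and 21 CPM in inland plants, an LFC of 6.93 (SE 0.22). In the other direction, Migut.D01473 had 6231, 7527 and 9897 CPM in coastal plants and 6461, 16120 and 22380 CPM in inland plants, an LFC of −1.10 (SE 0.14), and its groups overlapped only through inland plant 4. The 10 most abundant genes of a library held 13.7% ± 3.43 of the counts in coastal libraries against 13.9% ± 2.81 in inland ones (SD, n = 10 each; two-sided permutation p = 0.874, adjusted over 2 measures 0.874). Genes detected at equal depth numbered 17650 ± 156 in coastal and 17830 ± 624 in inland plants (permutation p = 0.403, adjusted 0.806).

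Migut.L01836 was uneven among the inland plants alone. It had 2056, 2532 and 3707 CPM in coastal plants, whereas inland plants 1, 8, 9 and 10 had 18.9 to 50.5 CPM and the other 6 had 514.6 to 1369 CPM. No inland plant reached the coastal range, and the LFC was 2.56 (SE 0.64, adjusted p = 1.56e-03). At 2leaf its coastal values were 3202 to 4426 CPM and its inland values 24.6 to 2854 CPM.

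The ecotype difference was largely shared with the younger stage. At 2leaf, 8146 of 14236 genes were called (57.2%). Over the 14136 genes tested at both stages the 2 sets of LFCs, from separate plants, had a Pearson r of 0.90 across genes, which are not independent replicates. Of these genes 6277 were called at both stages with the same sign, which is 70.8% of the 4leaf calls and 77.7% of the 2leaf calls, and 134 were called with opposite signs. Tested directly, the difference changed between the stages for 1475 of 15077 genes (9.78%), with 622 changes towards coastal and 853 towards inland plants. The split was 389 and 951 with library size alone. Without inland plant 4, 2016 changes were called, 972 towards coastal and 1044 towards inland plants.

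For 4 of the 10 jasmonate signalling genes the difference in favour of inland plants was smaller at 4leaf than at 2leaf, where 9.78% of all genes changed in either direction. The LFC of JAZ6 (Migut.D00926) was −3.73 at 4leaf and −5.98 at 2leaf, a change of 2.31 (SE 0.42, adjusted p = 2.06e-04). Its coastal median was 2.32 CPM at 4leaf and 0.979 CPM at 2leaf, and its inland median 24.5 CPM at 4leaf and 76.5 CPM at 2leaf. JAZ8 (Migut.M00900) changed by 2.73 (adjusted p = 9.37e-03), and the MYC2 genes by 1.71 (Migut.B01912, adjusted p = 4.68e-03) and 1.17 (Migut.E00934, adjusted p = 2.28e-03).

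The LFC of ST2A (Migut.B01186) was 0.77 at 4leaf and −2.53 at 2leaf, a change of 3.33 (adjusted p = 1.37e-07), though the positive LFC at 4leaf lost its call under the alternative named above. In inland plants it had 1.21, 2.18 and 4.96 CPM at 4leaf and 8.48, 13.8 and 48.9 CPM at 2leaf, and the ranges did not overlap. In coastal plants it had a median of 4.28 CPM at 4leaf and 3.05 CPM at 2leaf.

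GA3ox1 (Migut.I00834) differed more at 4leaf than at 2leaf. Its LFC was 5.02 at 4leaf and 2.65 at 2leaf, a change of 2.31 (adjusted p = 1.34e-05). Inland plants had 0 to 5.51 CPM at 4leaf and 5.48 to 16.1 CPM at 2leaf, and coastal plants 17.9 to 74.2 CPM at 4leaf and 35.5 to 133 CPM at 2leaf. OPR1 (Migut.B00747) moved the other way, by −2.16 (adjusted p = 2.45e-03). DELLA (Migut.H02266) had an LFC of −0.09 at 2leaf, and its change of 0.95 had an adjusted p of 0.0535, which was 0.0103 with a change of 1.16 without inland plant 4.

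The cell division genes missed the threshold of this test with all plants. Only 2 of the 6 cyan hubs were called at 2leaf, against 57.2% of all genes tested. Their LFCs at 2leaf ran from 0.23 to 0.88, and their changes between stages had adjusted p-values from 0.261 to 0.701. Without inland plant 4, 4 of the 6 changes were called, against 13.2% of all genes tested. They were those of both kinesin genes (Migut.H01772 and Migut.F00327), the cyclin-dependent kinase gene (Migut.C00348) and histone H2A6 (Migut.D02117), by 1.13 to 1.24. Inland plant 4 was the highest inland plant for all 6, so leaving it out had to raise their LFCs at 4leaf. These calls are therefore no independent evidence of a change. Changes called only without that plant were also those of SOS1 (−0.65, adjusted p = 0.0332), PIF1 (Migut.D00504, −0.74, 0.0338), ribosomal L38e (0.44, 0.0275), ribosomal L14p/L23e (0.54, 0.0194) and the peroxidase gene (−4.42, 0.0377).

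The largest changes were in genes known by identifier alone. Migut.G00115 had an LFC of −7.41 at 4leaf and −0.85 at 2leaf, a change of −6.63 (adjusted p = 1.80e-04). At 4leaf it had 0.441, 1.10 and 1.98 CPM in coastal plants and 12.2, 42.4 and 1498 CPM in inland plants, with 1498, 853 and 414 CPM in inland plants 5, 10 and 7, the plants that also held most of the defence hub counts. Migut.O00135 had an LFC of 4.48 at 4leaf and −1.88 at 2leaf. Its coastal values at 4leaf ran from 0.248 to 87.8 CPM, the highest in plant 2 and the next 26.2 CPM. They overlapped the inland values of 0 to 1.665 CPM. Migut.E00037 was near 0 in both ecotypes at 2leaf, at most 1.97 CPM, and at 4leaf had 8.62, 28.6 and 52.1 CPM in inland plants but at most 0.869 CPM in coastal plants.

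**Figure D5:**
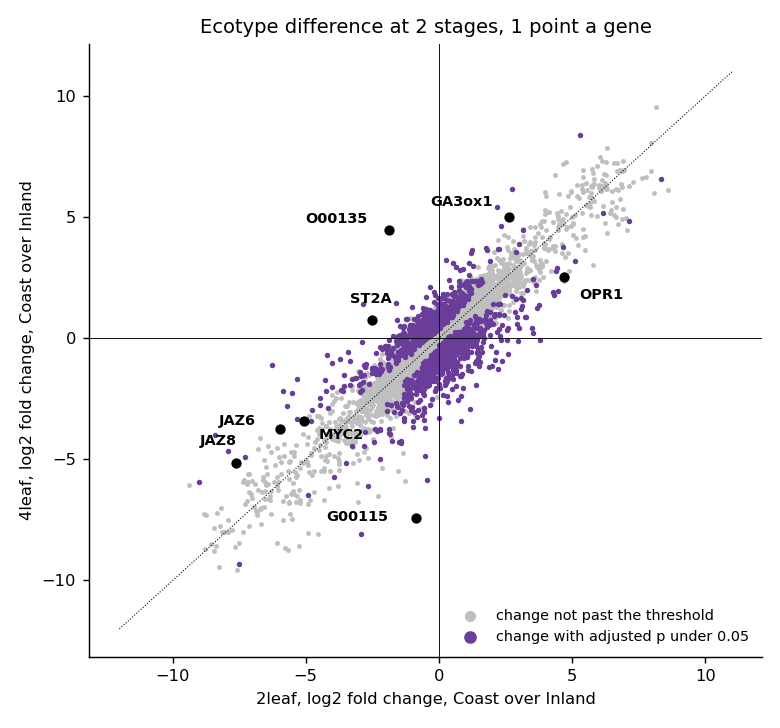
LFC of coastal over inland plants at 4leaf (up) against 2leaf (across), 1 point per gene tested at both stages, with the line of equality dotted (purple, change between stages with adjusted p under 0.05; black, named genes). Most genes lie along the line, with r = 0.90. ST2A sits at −2.53 across and 0.77 up, and JAZ6, JAZ8 and MYC2 lie above the line.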

How the data were processed

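The authors removed adapters (Cutadapt), aligned reads to the Mimulus guttatus v2.0 genome (BWA-MEM), retained primary alignments of high quality (SAMtools) and counted reads per gene by strand with HTSeq 0.6.1. The deposited values are whole-number counts, not normalised. The table held 28140 genes, 2988 of them without a count in any of 80 libraries, and 0 count columns without a sample. Identical values were found in 0 of 3160 library pairs.

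Genes were tested with edgeR 4.0.16 in R 4.3.3 (filterByExpr, minimum count 10 and total 15, TMM, quasi-likelihood F test, pool and ecotype as terms), on 20 libraries per stage and on 40 for the change between stages. The SE of an LFC is its size over the root of F. TMM factors for CPM came from 80 libraries. Permutation tests drew 100000 resamples. Alternatives used limma 3.58.1 and DESeq2 1.42.0, and code was tested on simulated data. Counting intervals cover counting error only.

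The members and gene lists were chosen with earlier results of these data known. Named were genes of the lists, and per direction the 8 called genes of largest LFC averaging 10 counts or more in the higher group, the 5 most abundant with an absolute LFC above 1, and the 5 with the largest called change between stages. List members that added nothing were left out. Gene names are the study's, since 0 identifiers matched the reference table.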

Additional observations from a re-analysis of the deposited data

Results flagged for a closer look

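Of 268 sets of 10 plants, 44 (16.4%) had a plant whose gap to its neighbour passed Dixon's limit. About 5% of independent, normally distributed sets would pass it. Many sets here were CPM or sums that share genes, some with counts in a single plant, so these shares cannot be compared. Of the 44, 13 were inland plant 4. That plant stood apart by its score on the first principal component (39.6), its mean correlation with its group (0.895) and its 2634 genes over 2-fold from the rest. It was highest for the summed cyan hubs (487 CPM), both kinesin genes (Migut.H01772, 71.1 CPM, and Migut.F00327, 14.7 CPM), TPX2 (28.2 CPM), the cyclin-dependent kinase gene (44.7 CPM), histone H2A6 (310.5 CPM), ribosomal L38e (250.4 CPM), the peptidyl-prolyl isomerase gene (61.5 CPM) and Migut.E00178 (0.357 CPM), and lowest for AMI1 (30.7 CPM).

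Inland plant 5 was apart for the summed lightcyan hubs (889 CPM), MLP423 (476 CPM), the peroxidase gene (336 CPM), metacaspase 9 (0.261 CPM) and Migut.K00768 (33.2 CPM). Inland plant 2 was apart for GA3ox1 (5.51 CPM), HKT1 (4.73 CPM), ribosomal S19 (229 CPM) and Migut.L01288 (364 CPM), inland plant 1 for Migut.O00742 (16.7 CPM) and galactinol synthase 2 (1.02 CPM), and inland plant 6 for Migut.B01108 (0.632 CPM).

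Coastal plant 8 was apart for the summed gibberellin genes (399.9 CPM), GA20ox1 (239 CPM), IAR3 (12.8 CPM), SHY2 (22.2 CPM) and Migut.F01339 (13.7 CPM). Coastal plant 6 was apart for ILL6 (Migut.C01122, 13.3 CPM), Migut.F01336 (1.25 CPM), MLP423 (0.5002 CPM), MLO (11.5 CPM), Migut.E00995 (0.2501 CPM) and Migut.I00184 (3228 CPM). The others were coastal plant 2 for OPR1 (Migut.B00747, 30.5 CPM) and Migut.O00135 (87.8 CPM), plant 4 for Migut.K00768 (1.95 CPM) and Migut.B00033 (0.217 CPM), plant 5 for BKI1 (10.6 CPM) and Migut.D01473 (9897 CPM), and plant 7 for PIF1 (Migut.M00105, 106 CPM) and Migut.G01100 (2807 CPM).

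The ecotype difference changed between the stages, by the test of the change itself, for 24 named genes. Given as the LFC at 4leaf minus that at 2leaf, the positive changes were 1.24 for AOS (Migut.J00934), 3.33 for ST2A, 2.31 for JAZ6, 2.73 for JAZ8, 1.71 and 1.17 for the MYC2 genes, 2.31 for GA3ox1, 1.57 for BKI1, 0.64 for the peptidyl-prolyl isomerase gene, 2.95 for Migut.M00100, 6.63 for Migut.O00135, 5.77 for Migut.C00836, 5.36 for Migut.J00548, 4.64 for Migut.K00768 and 4.29 for Migut.N00327. The negative changes were −1.61 for AOS (Migut.B00287), −2.16 for OPR1 (Migut.B00747), −1.73 for Migut.N02328, −0.71 for Migut.D01473, −6.89 for Migut.A00979, −6.63 for Migut.G00115, −6.36 for Migut.B00033, −5.92 for Migut.E00037 and −5.44 for Migut.L01288.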

How the results depend on the processing

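The count of 9544 genes called at 4leaf moved by over 1.5 times with a minimum count of 50, where 9107 genes were tested and 6037 called, and within single library pools, where fewer plants gave 5470, 2395, 4083 and 4274 calls in pools 1 to 4. It ranged from 9233 to 9739 over 20 fits with 1 plant left out. It was 9537 with voom and limma, 9507 with DESeq2, 9222 with library size alone and 11224 with no filter. With no pool term it was 7949 of 13557 genes tested, since the filter depends on the terms and kept fewer genes. The 1475 changes between stages became 908 with voom and limma on 60 libraries without the pool term, against 1084 with edgeR on the same libraries and 1011 with the pool term alone dropped. Plants with the same number did not deviate together (r from −0.25 to 0.23, 4 of 10 above 0.1, and 1 of 10 closest to its own number), so numbers were not treated as pairs. With the replicate block and pool, 9721 genes were called at 4leaf and 1360 for the change between stages. No called LFC of a named gene changed sign under the alternatives run, but over all called genes some did within single pools, where 7668 of 8151 kept 1 sign in all 4. Depth limits genes with few counts, such as JMT and those seen in 1 accession alone.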
